A study of Mus musculus with 2 samples.

Results

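The genes described here are the C1q chain genes C1qa, C1qb and C1qc, the classical pathway genes C2 and C4b, and Serping1, which encodes the C1 inhibitor. They were selected by name, as every non-control array spot whose gene name, or current symbol of its RefSeq accession, was on this list of 6 genes. All 6 genes were measured, by 7 probes on 16 spots per array, among 15677 measured genes in all. Of the 6, C2 alone encodes a protease precursor. The study set 2 pools of sorted mouse cells against each other. The colon pool held cells sorted as CX3CR1high, CD11b+ and CD11c+ out of large-intestinal lamina propria, the layer beneath the gut epithelium, with CX3CR1gfp/+ mice as donors. In those mice green fluorescent protein replaces an allele of Cx3cr1, the fractalkine receptor gene. The blood pool held monocytes sorted as Ly6c+ and CD11b+ from the blood of C57BL/6J mice. No age or treatment is given for either pool. The submitters list n = 10 beside the colon cells and n = 6 beside the monocytes, and what n counts is unstated. Each of 2 dual-channel arrays carried both pools, with the colon pool in Cy5 and the blood pool in Cy3 on array 1 and the dyes exchanged on array 2. The labels describe the pools of both arrays alike and call array 2 a dye swap, but do not say whether the same RNA extracts were used. The arrays were taken to carry the same extracts and counted as 1 replicate, so no test was made. A log2 ratio is given as colon over blood and as the mean over both arrays ± the SD of the 2 arrays, which covers technical error alone if the extracts were the same. Tissue, isolation and the donor mice, CX3CR1gfp/+ or C57BL/6J, differed together with the cell type and cannot be told apart.

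C1q is the recognition protein of the classical complement pathway. Its A, B and C chains each carry a collagen-like stalk and a globular head, which binds antibody complexes, apoptotic cells and microbes. C1q holds the proteases C1r and C1s, which cleave C4 and then C2 to form the enzyme that cleaves C3, and the C1 inhibitor blocks C1r and C1s. Most complement proteins of plasma come from the liver, whereas C1q is known as a product of macrophages and dendritic cells, and fibroblasts are known to make C1r, C1s, C4 and C1 inhibitor.

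The size rule for a call asked for a ratio of 2-fold or more on array 1 and on array 2, in 1 direction, with the brighter pool flagged by the scanner software as well above background both times. By this rule 14.2% of the measured genes were higher and 4.45% lower in the colon pool, and the median log2 ratio of all measured genes was 0.06. Of all calls 76.1% were higher, and 60.5% with the ratios of the scanner software. The genes of the sort markers were read as a check of the labels. Itgax, which encodes CD11c, was higher in the colon pool at 3.35 ± 0.08 and Ly6c1 was lower at -3.28 ± 0.09. Itgam, which encodes CD11b, at -0.46 ± 0.33 and Cx3cr1 at 0.10 ± 0.25 did not pass. On array 1, spots had a median mean signal of 96.6 in the colon pool and 64.2 in the blood pool. The medians on array 2 were 67.1 and 79.9, over a local background of 40.5 to 43. No spot was saturated, and the number of arrays limits the technical precision. With both arrays counted as 1 replicate, the spread between pools of the same kind was not measured.

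In the colon pool all 6 genes were called higher, where 14.2% of measured genes were, and 0 were called lower. Their log2 ratios ran from 3.50 for C2 to 5.74 for Serping1, which is 11.3-fold to 53.5-fold, with a median of 4.71. All 7 probes passed, and all were well above background in both pools on both arrays, so every ratio rests on a signal in each pool. In pools of many cells, fewer cells that make a transcript and less of it per cell cannot be told apart.

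**Figure D1:**
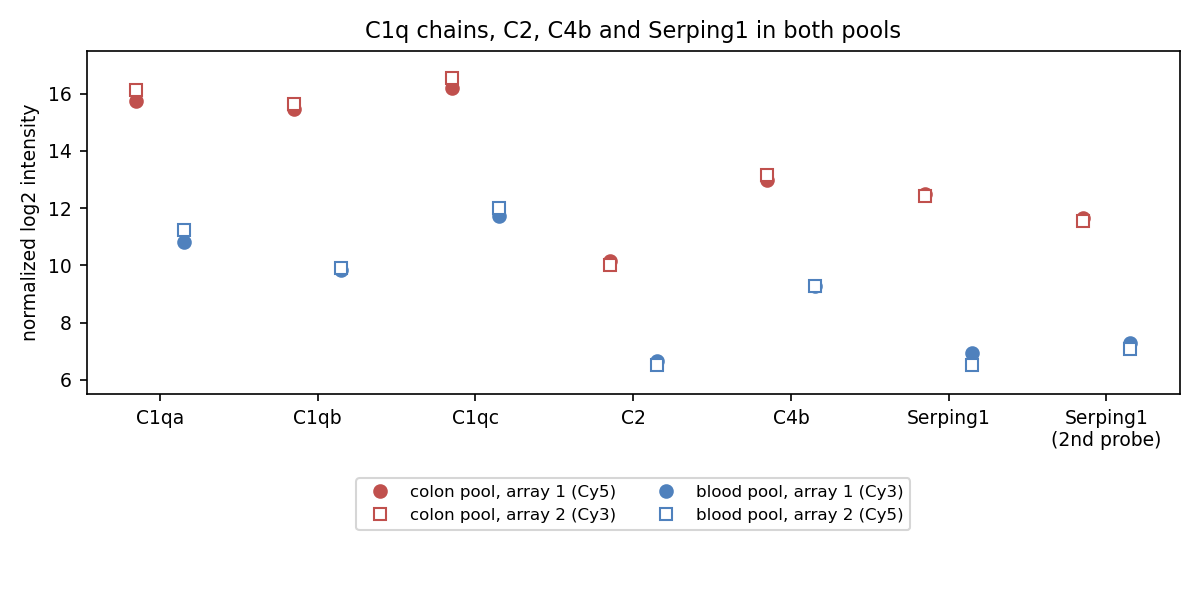
Normalized log2 intensity (vertical axis) of the 7 probes (horizontal axis) in the colon pool (red) and the blood pool (blue), with a filled circle for array 1 and an open square for array 2. Each probe reads higher in the colon pool on both arrays; levels of different probes are not comparable.

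The probes of C1qa and C1qb, and the Serping1 probe that crosses an intron, are shown to say what was hybridised. The C1qa and C1qb ratios rest on these probes, whereas the Serping1 probe shown is the dimmer of that gene's 2 and does not give its reported ratio. All lie on the minus strand of mouse build mm9, and each has at least 1 reading frame without a stop codon. The 2 C1q probes have the same share of G and C bases, 55.0%. The sequences are those in the deposited scanner files.
C1qa, chr4:136452409-136452468: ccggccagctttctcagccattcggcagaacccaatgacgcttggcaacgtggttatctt
C1qb, chr4:136436578-136436637: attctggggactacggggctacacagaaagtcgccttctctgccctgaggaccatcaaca
Serping1, chr2:84605968-84607474: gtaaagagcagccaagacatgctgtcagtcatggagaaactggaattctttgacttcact
The 60 bases of the Serping1 probe span 1507 positions of the genome, so they join sequence from both sides of an intron. Exon and UTR annotation of mm9 was not used here.

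The C1q chains were all higher in the colon pool by more than 16-fold on both arrays and differed from each other in their ratios. C1qb, the B chain gene, gave 57543.8 intensity units in the colon pool on array 1 and 23282.8 on array 2, against 767 and 1918 in the blood pool. Its ratio was 5.65 on array 1 and 5.75 on array 2, a mean of 5.70 ± 0.07 or 51.9-fold. The blood signal of C1qb was 18.3 times its local background on array 1 and 43.1 times on array 2, so the blood pool also gave a clear signal. C1qa, the A chain gene, gave 70164.5 units on array 1 and 31289.7 on array 2 in the colon pool, against 1539 and 5012 in the blood pool. Its ratio was 4.92 and 4.89 on the arrays, a mean of 4.90 ± 0.02 or 29.9-fold. The pools lay far apart on each array and the arrays gave nearly the same ratio.

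C1qc, the C chain gene, has the most spots of the group, since its probe (chromosome 4, 136445766 to 136445825, mm9) was printed on 10 spots per array. These are repeat prints on the same array, so their spread does not cover differences between arrays. In the colon pool the spots averaged 97762.8 units on array 1 and 41151.1 on array 2, against 2882 and 8626 in the blood pool. The ratio over the spots of array 1 ran from 4.35 through a median of 4.48 to 4.53, with an SD of 0.05. On array 2 it ran from 4.51 through 4.55 to 4.66, with an SD of 0.04. The mean of both arrays was 4.51 ± 0.07 or 22.8-fold. Single intensities varied more than ratios between spots, with coefficients of variation from 9.12% to 12.5% in the colon and blood channels.

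**Figure D2:**
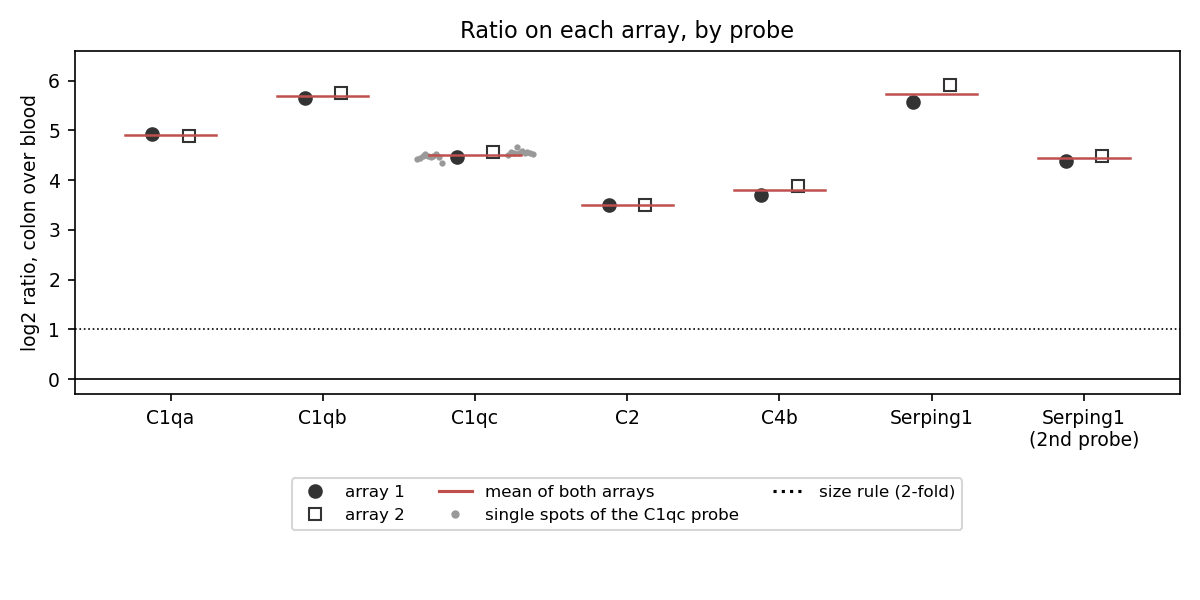
Log2 colon-to-blood ratio (vertical axis) for each probe (horizontal axis) on array 1 (filled circle) and array 2 (open square), with a red line at their mean, grey points for the 10 spots of the C1qc probe and a dotted line at the 2-fold rule. All probes lie above the line on both arrays, from 3.49 to 5.91.

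The chains kept their order on each array. C1qb exceeded C1qa by 0.73 on array 1 and 0.86 on array 2 on the log2 scale, a difference of 0.79 ± 0.09. C1qa exceeded C1qc by 0.45 and 0.33, a difference of 0.39 ± 0.08. Both differences were larger than the SD between arrays. The chains are assembled in equal numbers in the C1q protein. A ratio compares the pools for 1 chain, and levels of different probes are not comparable. Unequal ratios therefore do not give the transcript numbers of the chains within a pool. Whether the probes differ in how far they compress ratios was not tested.

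Promoter windows of C1qb and C1qc are shown because these genes of 1 cluster were high together. Each holds 300 bases around the annotated start, most of them before it, from RefSeq on GRCm38.p6, and 2 of the 6 genes matched. Capitals mark the PU.1 core motif GAGGAA and the MAF half-site TGCTGA, searched on both strands.
C1qb, chr4:136886151-136886450, minus strand: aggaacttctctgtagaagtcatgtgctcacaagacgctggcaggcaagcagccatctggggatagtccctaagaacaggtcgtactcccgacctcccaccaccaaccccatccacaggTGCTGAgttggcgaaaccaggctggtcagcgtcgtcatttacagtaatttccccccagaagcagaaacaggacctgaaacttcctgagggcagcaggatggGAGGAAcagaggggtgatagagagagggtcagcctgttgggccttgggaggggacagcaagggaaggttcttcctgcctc
C1qc, chr4:136892865-136893164, minus strand: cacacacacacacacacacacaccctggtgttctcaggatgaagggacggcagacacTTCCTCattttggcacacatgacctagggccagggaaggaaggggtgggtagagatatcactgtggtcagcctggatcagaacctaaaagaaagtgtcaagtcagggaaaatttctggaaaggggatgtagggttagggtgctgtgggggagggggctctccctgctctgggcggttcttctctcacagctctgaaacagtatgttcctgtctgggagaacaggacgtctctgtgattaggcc
PU.1 and MAF proteins are transcription factors of macrophages. Each window held 1 PU.1 motif, at position -30 in C1qb and -193 in C1qc from the start, where 28.3% of 32851 windows of the same length hold it. C1qb also held 1 MAF half-site at -131, present in 19.5% of windows, and the motifs did not overlap. A match is a description of the sequence and not a binding site.

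C4b encodes complement C4, the protein that attaches to targets after cleavage by C1s. Its probe (chromosome 17, 34865328 to 34865387, mm9) gave 10061.8 units in the colon pool on array 1 and 4343 on array 2, against 522 and 1170 in the blood pool. The ratio was 3.71 and 3.88, a mean of 3.80 ± 0.12 or 13.9-fold. According to its deposited annotation the probe also matches the transcript of C4a, the near-identical neighbouring copy known as sex-limited protein, so C4b and C4a cannot be told apart. C2 encodes the protease precursor that completes the C3-cleaving enzyme. Its probe (chromosome 17, 34999575 to 34999634) was dim, with 1389 units in the colon pool on array 1 and 591 on array 2, against 75.0 and 124 in the blood pool. The ratio was 3.50 and 3.49, a mean of 3.50 ± 0.01 or 11.3-fold. In the blood pool the C2 spot was 1.79 and 3.13 times its local background, so its ratio depends on how the background is handled.

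By its brighter probe Serping1 had the highest ratio of the group, and the least certain one. Its brighter probe (chromosome 2, 84605663 to 84605722, mm9) gave 7003 units in the colon pool on array 1 and 2881 on array 2, against 89.1 and 149 in the blood pool. The ratio was 5.57 and 5.91, a mean of 5.74 ± 0.25 or 53.5-fold. The blood signal was 2.28 and 3.23 times local background, so this ratio too depends on the background. The intron-crossing probe gave 3953 and 1590 units in the colon pool, against 118 and 224 in the blood pool. Its ratio was 4.44 ± 0.07 or 21.7-fold, lower than that of the first probe on both arrays but in the same direction.

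The order of the ratios was Serping1, C1qb, C1qa, C1qc, C4b and C2. Serping1 and C1qb exchanged places between the arrays, with a difference of 0.04 ± 0.18, and cannot be ordered. The intron-crossing Serping1 probe read 4.44, below each of the C1q chains but close to C1qc at 4.51. With the software's ratios that probe read 4.90, level with C1qa at 4.90 and above C1qc at 4.55. The place of Serping1 above C1qa and C1qc therefore rests on the probe used and, for the intron-crossing probe, on the processing. Each further step kept its direction on both arrays, with the smallest between C4b and C2 at 0.30 ± 0.12. That last order turned with the processing, since C2 read 4.06 and C4b 3.89 with an offset of 16, and 4.47 and 3.80 with the software's ratios, so C4b and C2 cannot be ordered either. By its brighter probe Serping1 stood at rank 24 of the 15677 measured genes by ratio. C1qb stood at rank 26, C1qa at 82, C1qc at 117, C4b at 234 and C2 at 319. A 16-fold ratio was reached on array 1 and on array 2 by 175 genes, 1.12% of those measured, and by 4 of the 6, the C1q chains and Serping1. The SD between arrays was above the median of all measured genes, 0.10, for C4b and Serping1 alone.

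**Figure D3:**
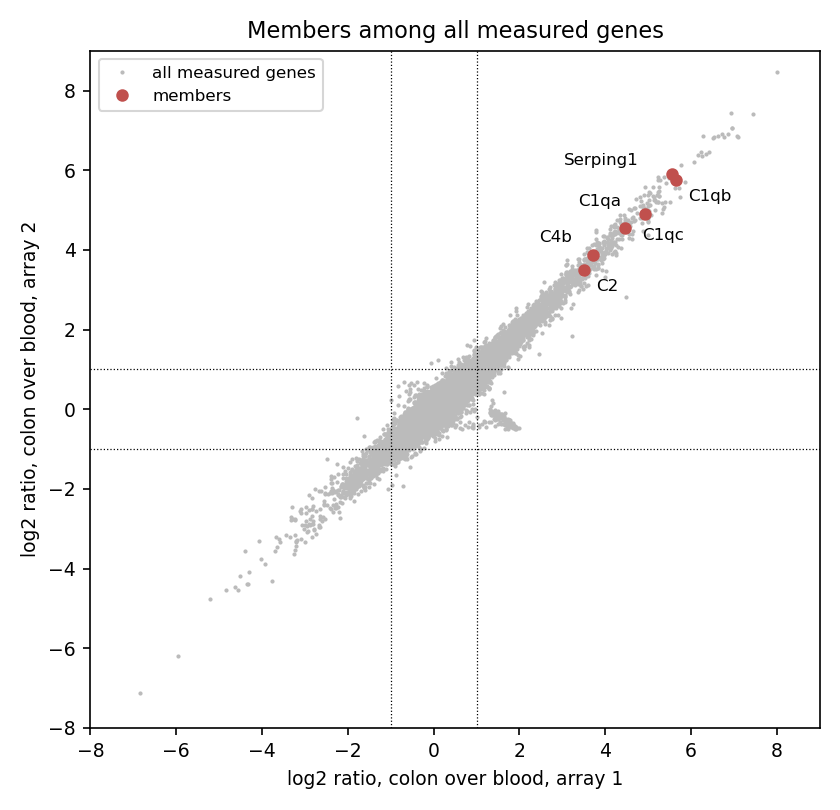
Log2 colon-to-blood ratio on array 1 (horizontal axis) and array 2 (vertical axis) for the 15677 measured genes (grey) with the 6 genes in red and dotted lines at the 2-fold rule. The 6 genes lie near the diagonal at the upper right, between 3.49 and 5.91 on each axis.

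All 6 genes were called higher under each of the 12 alternatives tried, including each array alone, but some sizes changed. Scaling each array by its median alone, without loess (median centring), gave 4.11 for C1qa, 4.94 for C1qb, 3.71 for C1qc, 3.07 for C2, 3.10 for C4b and 5.15 for Serping1. That scaling moved the median of all measured genes to -0.28, and relative to it the ratios were 4.39, 5.22, 3.99, 3.35, 3.38 and 5.43 in the same order of genes. With the ratios of the scanner software, whose median was -0.12, the dim genes moved most, C2 to 4.47 (22.1-fold) and Serping1 to 6.58 (95.5-fold). The bright genes stayed at 4.90 for C1qa, 5.71 for C1qb, 4.55 for C1qc and 3.80 for C4b. An offset of 16 in place of 50 gave 4.06 for C2 and 6.24 for Serping1, and the mean over its probes gave 5.09 for Serping1.

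**Figure D4:**
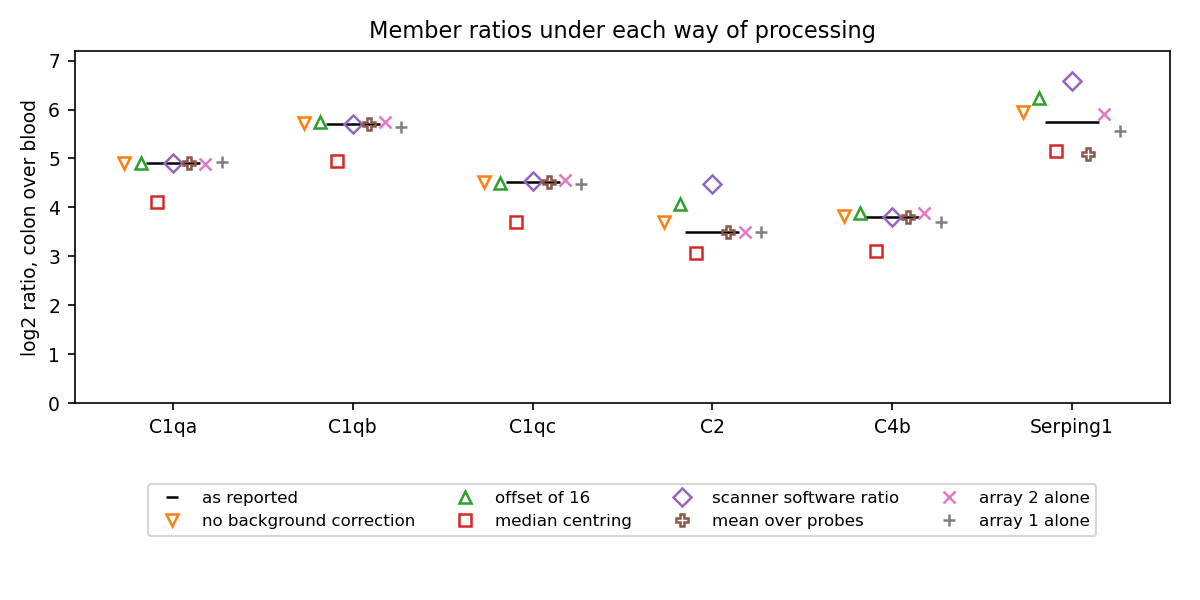
Log2 colon-to-blood ratio (vertical axis) for the 6 genes (horizontal axis) as reported (black line) and under the alternatives that change a value (symbols). Every symbol lies at 3.07 or above, and the spread is widest for C2 and Serping1.

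The neighbours of these genes were read next. The C1q genes lie within 15.8 kb on chromosome 4 by their probes, between Ephb2 and Epha8 in the RefSeq order of GRCm38.p6. Ephb2, a receptor tyrosine kinase gene, read 0.29 ± 0.02, Epha8 was not well above background in either pool, and the next measured genes Zbtb40 and Wnt4 read -0.33 ± 0.20 and 0.67 ± 0.09. None of these neighbours passed the size rule. C2 and C4b lie 134.2 kb apart on chromosome 17 by their probes. Between them 6 measured genes, among them Cfb, the alternative pathway gene next to C2 that encodes a related protease precursor, read from -0.58 to 0.22, with Cfb at 0.05 ± 0.08. On the outer side of C4b the matrix protein gene Tnxb was higher at 4.19 ± 0.08 and Fkbpl was lower at -1.22, whereas Atf6b at -0.44 ± 0.04 did not pass. The measured neighbours of Serping1, Clp1, Zdhhc5, Ube2l6 and Timm10, lay between -0.69 and 0.02 and none passed.

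Of 13 other recognition molecules and proteases of the classical and lectin pathways, 8 were measured, 5 were higher and 1 was lower in the colon pool (median 2.63). Beside this list and those that follow stand 14.2% of all measured genes called higher and 4.45% called lower. The C1s protease genes had the highest values. C1s2 read 5.19 ± 0.28 from a probe that also matches C1s1, while its other probe was not well above background. The copies therefore cannot be told apart, although each is counted among the 5. C1s1 read 5.00 ± 0.18, and its blood signal cleared background on 1 array. With the software's ratios C1s1 read 7.36 and C1s2 6.61, so their sizes and order depend on the background. Fcna, the macrophage ficolin gene of the lectin pathway, was higher at 4.60 ± 0.06, and the C1r genes C1ra and C1rb at 3.27 ± 0.10 and 1.98 ± 0.05. Fcnb, a ficolin gene of monocytes and neutrophils, was lower on both arrays. The colon pool was not well above background for Fcnb, and there it was at least 2.02-fold lower. Fcnb lost its call under median centring (-1.14) and read -4.38 with the software's ratios. This bound sets the bright pool's mean normalized signal against, per array, the higher of the dim probe's own signal and the dimmest signal of any probe flagged above background. C1rl read -1.04 ± 0.17 and missed the rule on array 1 (-0.92), and passed as lower with an offset of 16 (-1.16) and with the software's ratios (-1.68). Masp1, Masp2, Mbl1, Mbl2 and Colec10 were not well above background in either pool.

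Components that act after C4 and C2 were read next. Of 9 genes for C3, the C4 copy and the terminal components, 4 were measured, 1 was higher and 1 lower, with a median of 0.02. C3, the central component cleaved by the classical and alternative enzymes, was lower at -1.06 ± 0.0035, with 37645.1 and 10575 units in the colon pool, against 49659.6 and 117020 in the blood pool. It stood near the threshold and lost its call with the mean over its probes (-1.05), and with median centring (-1.89), where it was not past 2-fold on each array. C6, of the membrane attack complex, was at least 3.29-fold higher in the colon pool (log2 4.39 with the software's ratios), and C7 at 0.15 ± 0.74 and C8g at -0.11 ± 0.11 did not pass. Of 12 regulators 5 were measured, 2 were higher and none lower, and the median was 1.13. Cd55, which speeds the decay of C3-cleaving enzymes on cell surfaces, was higher at 4.05 ± 0.01, and so was its copy Cd55b at 2.36 ± 0.01. With the software's ratios Cd55 read 4.93 and Cd55b 3.38. Cr1l, the rodent surface regulator Crry, at -0.15 ± 0.05 and Clu, clusterin, at -0.38 ± 0.01 did not pass. Cd59a at 1.13 ± 0.28 missed the rule on array 2 (0.94), and its blood signal was not well above background on either array. It passed as higher with an offset of 16 (1.73) and with the software's ratios (3.10).

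Of 7 genes for proteins described as C1q receptors or partners, 6 were measured, 2 were higher and none lower, and the median was 0.90. Cd93 was higher at 1.76 ± 0.22 and the inhibitory collagen receptor gene Lair1 at 1.48 ± 0.24, and both lost their calls under median centring (0.95 and 0.80). The other Lair1 probe read 0.35. Calreticulin, Calr, at 0.95 ± 0.30, C1qbp at 0.62 ± 0.12 and the endocytic receptor gene Lrp1 at -0.54 ± 0.12 did not pass. Among 14 other genes with C1q-like heads, 7 were measured, 4 were higher and none lower, and the median was 1.34. C1qtnf1 at 2.56 ± 0.07 and C1qtnf3 at 2.27 ± 0.0026 were the highest, followed by C1qtnf5 at 1.66 ± 0.22, whose probe also matches Mfrp and whose call was lost under median centring (1.54). The other probe of C1qtnf1 read 1.71 and that of C1qtnf3 read 1.41. With the software's ratios C1qtnf1 read 3.50 and C1qtnf5 3.06. All were below the lowest of the C1q chains.

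**Figure D5:**
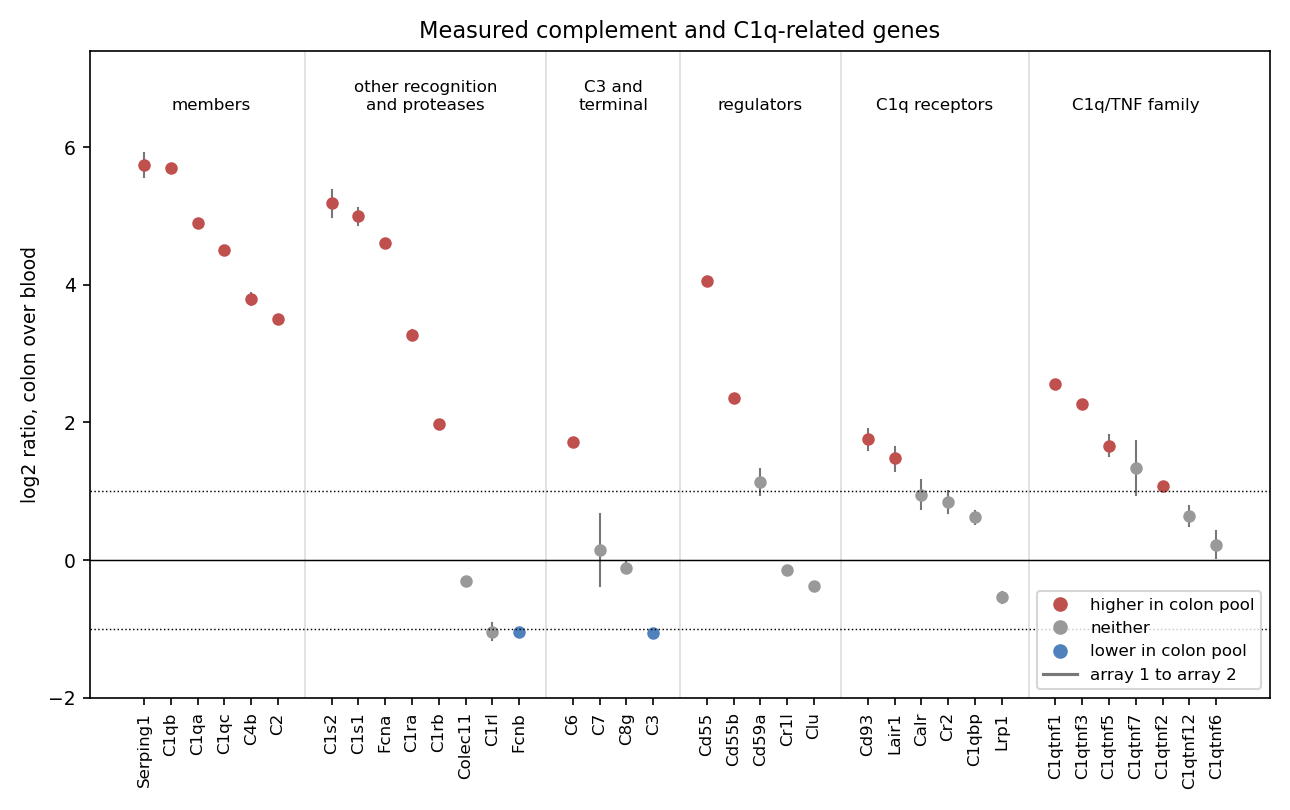
Log2 colon-to-blood ratio (vertical axis) for the measured genes of the complement and C1q-related lists (horizontal axis), with a point at the mean, a grey line between the values of the 2 arrays, red for higher, blue for lower and grey for neither. The 6 genes span 3.50 to 5.74, and C3 and Fcnb lie below -1.

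Markers of cell types that the pools could hold were read beside these values. The shares to set beside each count are 14.2% of all measured genes called higher and 4.45% called lower. In the colon pool 13 of 15 macrophage markers were higher and none lower (median 2.67), led by the membrane protein gene Ms4a7 at 6.97 ± 0.15 and the mannose receptor gene Mrc1 at 5.78 ± 0.12. Their summed level was 559740 and 716561 normalized units in the colon pool on arrays 1 and 2, against 84408.5 and 126068 in the blood pool. In every list such a sum is set mostly by its brightest probes, here those of Apoe and Csf1r. Sums of different lists are not comparable, since levels of different probes are not. All 11 measured markers of Ly6C-high monocytes were lower (median -3.90), led by Chil3 at -6.98 ± 0.19 and Plac8 at -4.55 ± 0.12. They summed to 48462.6 and 38952.7 units in the colon pool, against 691168 and 517213 in the blood pool. Of 7 measured dendritic cell markers 1 was higher (14.3%, near the share of all measured genes), the chemokine receptor gene Ccr7 at 5.07 ± 0.14. Flt3 was lower at -1.50 ± 0.14, the only lower one.

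Markers of fibroblasts and smooth muscle were read in the same way. Of 12 such markers 11 were higher and 0 lower (median 3.66), led by the proteoglycan genes Dcn at 7.01 ± 0.08 and Lum at 6.82 ± 0.14. The blood signal of Lum cleared background on 1 array, and its ratio was 9.15 with the software's ratios. Their summed level was 121377 and 129215 units in the colon pool, against 2660 and 2517 in the blood pool, and Pdgfra, Myh11 and Des did not clear background in blood on either array. Of the B and plasma cell markers 6 of 7 were higher, led by Jchain at 5.18 ± 0.22 and Mzb1 at 3.65 ± 0.18, summing to 34310.8 and 35267.1 units in the colon pool and 2313 and 2368 in the blood pool. T cell markers were higher for 5 of 7, led by Cd28 at 3.09 ± 0.22 and Zap70 at 2.67 ± 0.13, with sums of 6787 and 6237 in the colon pool and 1786 and 1363 in the blood pool. Epithelial markers were higher for 9 of 12, led by Krt8 at 4.01 ± 0.24 and Lgals4 at 3.60 ± 0.03, with sums of 7623 and 6668 in the colon pool and 1165 and 959 in the blood pool. Endothelial markers were higher for 2 of 8, Egfl7 at 3.47 ± 0.19 and Plvap at 2.74 ± 0.08, with sums of 5007 and 4908 in the colon pool and 1947 and 1697 in the blood pool. Neutrophil markers were lower for 2 of 7, Mmp8 at -4.99 ± 0.30 and Cxcr2 at -1.98 ± 0.05, with sums of 5877 and 6066 in the colon pool and 11686 and 10503.2 in the blood pool. Among the marker genes, the software's ratios moved Krt8 to 5.24, Cd28 to 4.25, Zap70 to 3.59, Mzb1 to 4.46, Egfl7 to 4.28, Plvap to 3.59, Mmp8 to -6.39 and Cxcr2 to -3.76. The mean over probes gave 3.13 for Krt8, 3.36 for Lgals4, 2.06 for Zap70, 1.89 for Plvap, -4.28 for Plac8 and -1.30 for Flt3. The part of these cell types in the ratios of the 6 genes was not tested.

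Outside all lists, the genes whose ratios on the 2 arrays lay nearest to the mean of the C1q chains, 5.04, were LOC640614 (5.01), LOC640979 (5.08) and the microfibril gene Mfap4 (5.07), at distances of 0.0554 to 0.0647 over both arrays. Nearest to Serping1 were the matricellular gene Ccn2 (5.76), the protease gene Htra1 (5.65) and Zmynd15 (5.71), at distances of 0.0304 to 0.163. The nearness depends on probe and processing. With the mean over probes LOC640979 read 4.76, Zmynd15 4.61 and Serping1 5.09, while LOC640614, Mfap4, Ccn2 and Htra1 kept their values. With the software's ratios Ccn2 read 7.04, Htra1 6.17 and Zmynd15 5.96, against 6.58 for Serping1. Likeness here rests on 1 comparison measured on 2 arrays, which the genes share.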

How the data were processed

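The authors deposited linear spot and background intensities and a log10 ratio (red to green) from the scanner software, per the file headers, made with Agilent Feature Extraction (10.7.3.1 in the headers, 10.5.1.1 in the submitters' processing notes). Per the labels' protocols, 25 ng of total RNA was amplified from an oligo-dT primer. The flags for spots well above background and for outliers are the authors' deposited values. The deposited value table equals the log10 ratio on array 1 and its negative on array 2, within 4.81e-08, so it runs colon over blood. Intensities were corrected by normexp with an offset of 50, which compresses ratios of dim spots, and normalized by loess within each array, giving no weight to control or outlier spots (limma 3.58.1, R 4.3.3). Levels per pool were scaled further by Aquantile. Outlier spots were left out and spots of a probe averaged. Of 43020 spots that are not controls, 29529 were named through accessions and GRCm38 symbols, 8699 by the file and 4792 not at all. Measured genes are those with 1 pool flagged above background on array 1 and again on array 2, and the brightest probe gave the gene's value. The method was run on simulated arrays in which a small share of spots, all bright, changed equally often in each direction. The uneven share of higher calls seen here was not simulated. Named genes are the 6 members with every probe, up to 3 per direction of each complement list and 2 of each marker list past the size rule, all sort genes, and the 3 genes nearest in ratio. Others are named as counts of 5 or fewer or as neighbours, chosen after their values were seen. The members and lists were chosen with earlier results of these data known. An item withheld from the regulators is not reported here.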

Additional observations from a re-analysis of the deposited data

How the results depend on the processing

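The 12 alternatives were an offset of 16, no correction for background, the mean over probes, median centring, ratios from the software or from the deposited value table, no filter on dim probes, both pools well above background, thresholds of 1.5-fold and 4-fold, and each array alone. Under every one of them 6 of the 6 genes were higher and 0 lower. Only the alternatives that recompute the ratios could have changed this. With array 1 left out their ratios ran from 3.49 to 5.91, and with array 2 left out from 3.50 to 5.65. Other counts moved by over 1.5 times. With median centring 1138 genes were higher in place of 2224, and 0 C1q receptor genes in place of 2. The software's ratios and the value table gave 2079 lower genes in place of 698. The mean over probes left 1 C1q receptor gene higher, and the filter on both pools left 0 of the C3 and terminal genes in place of 1, since C6 was then not measured. At 1.5-fold 3493 genes were higher, 1724 lower and 4 C1q receptor genes higher. At 4-fold 954 were higher and 130 lower, with 0 C3 and terminal genes, 0 C1q receptor genes and 2 genes with C1q-like heads in place of 4. No named gene with a call changed sign. The causes were not tested, apart from the thresholds and filters, whose construction sets the counts. Signal over background limits C2 and Serping1 most.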
